A study of Mus musculus with 24 samples.

Results

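Trem2 and 8 genes that either carry its signal or lie at loci tied to the inherited risk of Alzheimer's disease were followed in microglia that lack C9orf72. The genes are Trem2, Tyrobp, Syk, Plcg2, Inpp5d, Cd33, Bin1, Abi3 and Ms4a6d. They were chosen by name, and all 9 were found by symbol among the 20636 genes of the tables. Microglia, the resident macrophages of the brain, were profiled by bulk RNA sequencing in mice labelled C57BL/6J that had lost both copies (homozygotes, HOM), 1 copy (heterozygotes, HET) or no copy (wild types, WT) of C9orf72, listed in the tables as 3110043O21Rik. Each genotype was sampled in 4 animals aged 17 months and 4 aged 3 months. Brains were stripped of meninges and digested with papain, myelin was removed with beads, and cells bearing CD11b, a surface protein shared by microglia, monocytes and neutrophils, were pulled out with magnetic beads, per the labels' protocols. The origin of the allele, the cells that carry it and the sex of the animals are not labelled.

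TREM2 is a surface receptor of myeloid cells that binds lipids, lipoproteins and amyloid, and it has no signalling tail of its own. It pairs with the adaptor TYROBP (DAP12), whose ITAM motif recruits the kinase SYK, which in turn activates the phospholipase PLCG2. The phosphatase encoded by Inpp5d (SHIP1) and the human sialic acid receptor CD33 restrain such signals. Loss of TREM2 or TYROBP causes Nasu-Hakola disease in humans, and coding variants of TREM2, PLCG2 and ABI3 alter the risk of Alzheimer's disease. C9orf72 acts in membrane traffic and lysosome biology, and a repeat expansion in the human gene causes amyotrophic lateral sclerosis and frontotemporal dementia.

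The 24 libraries held between 16.7 and 46.4 M alignments (M for mega), and homozygous libraries were deeper than wild-type ones at both ages. The shallowest library, WT-7782, is a 17-month wild type. Single animals are named here by genotype and animal number. The transcript of the targeted gene stood between 0.0148 and 0.265 TPM in the 8 homozygotes, between 5.45 and 11.4 TPM in the heterozygotes and between 13.2 and 25.6 TPM in the wild types. TPM, the per-length transcript unit of the tables, is a level scaled for transcript length and for the library's total. The microglial genes Cx3cr1, P2ry12, Tmem119 and Csf1r were high in every library, with Tmem119 between 1282 and 2303 TPM at 17 months and between 2159 and 3002 TPM at 3 months. By Y-linked transcripts, 3 homozygotes, 0 heterozygotes and 1 wild type were male at 17 months, and 2 homozygotes, 4 heterozygotes and 1 wild type at 3 months. Library HET-8304 had the highest summed TPM of oligodendrocyte, astrocyte, neuron and choroid plexus or ependyma markers among the 12 animals of 3 months, and no marker of the lists was at 0 in all 12 animals of an age.

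All 9 genes were well expressed in every animal, and Tyrobp and Trem2 were far above the others. Over the 12 animals of 17 months Tyrobp lay between 5265 and 7082 TPM (median 6324), which placed its mean 13th among all genes, and Trem2 lay between 2672 and 3241 TPM (median 2951), at rank 31. At 3 months Tyrobp lay between 4450 and 5246 TPM at rank 14, and Trem2 between 2106 and 2810 TPM at rank 36. The ranges of these 2 genes did not overlap with each other or with those of any other listed gene at either age. Bin1 followed with medians of 541 TPM at 17 months and 717 TPM at 3 months, and Inpp5d with 302 and 501 TPM. Cd33 had medians of 208 and 320 TPM, and Abi3 of 193 and 242 TPM. The lowest levels were those of Ms4a6d (104 and 122 TPM), Plcg2 (92.1 and 126 TPM) and Syk (71.1 and 117 TPM). Bin1 and Inpp5d did not overlap at either age, and Inpp5d overlapped with Cd33 at 17 but not at 3 months. Cd33 and Abi3 overlapped at both ages, as did neighbours among Ms4a6d, Plcg2 and Syk, all of which lay below Abi3. Ms4a6d stood above Plcg2 at 17 months and below it at 3 months. These orders compare levels per length in TPM. By medians in reads per kilobase and M alignments (RPKM), Ms4a6d stood below Plcg2 at both ages and below Syk at 3 months.

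**Figure D1:**
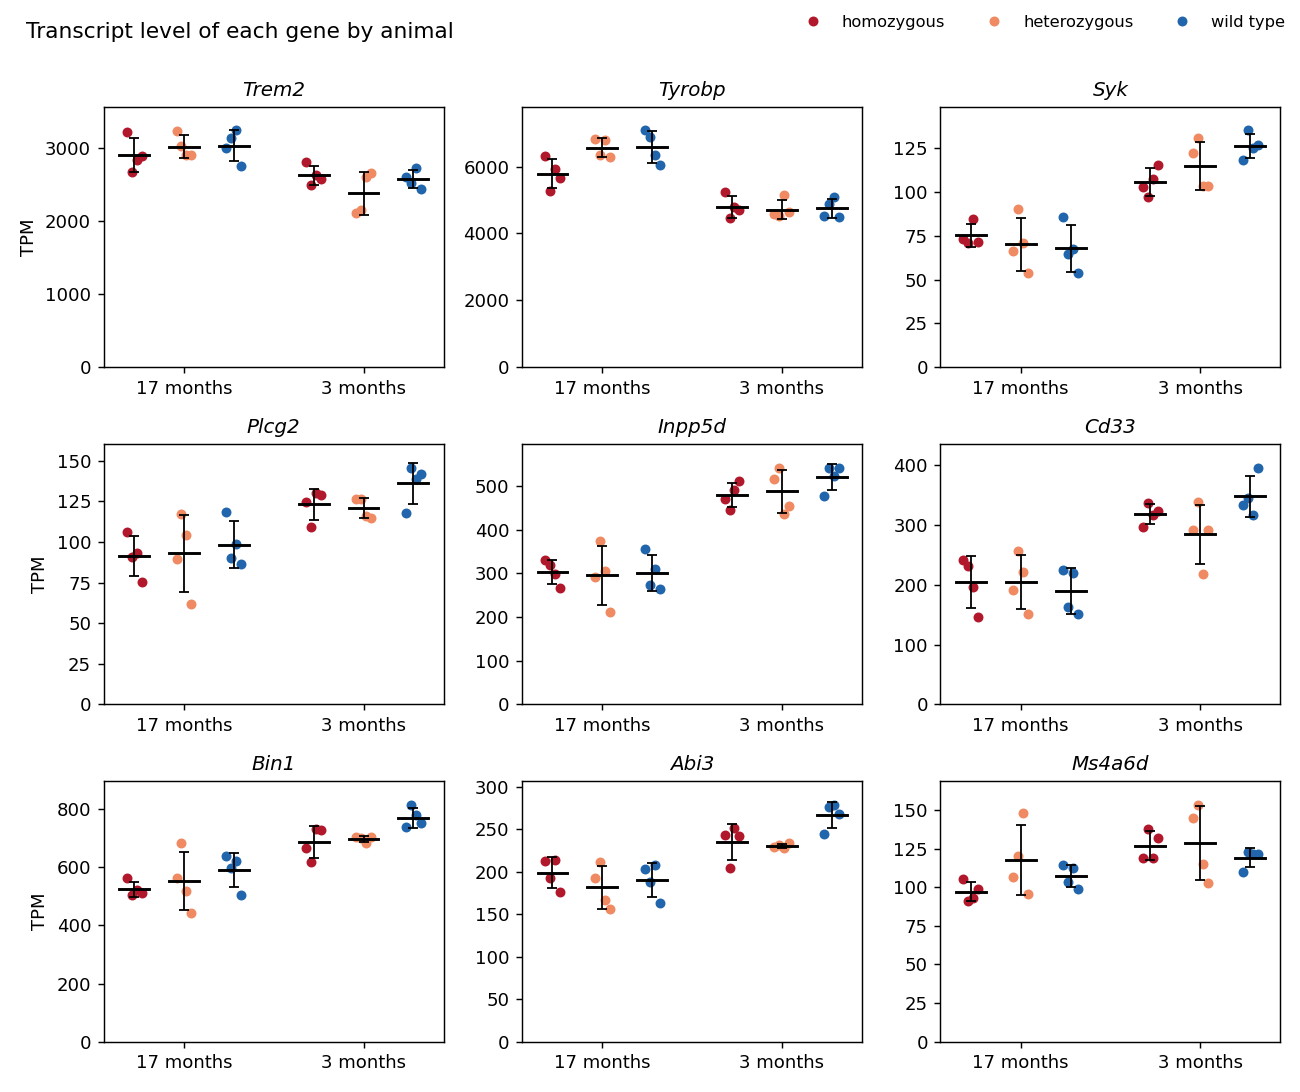
Level in TPM of each of the 9 genes in every animal, with homozygotes, heterozygotes and wild types from left to right at 17 months and then at 3 months (points are animals, the wide line is the mean of 4 animals and the error bar is 1 SD). Each axis starts at 0, and Tyrobp and Trem2 stand higher at 17 months in wild types while Syk, Inpp5d and Cd33 stand lower.

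At 17 months the levels of the 9 genes differed little between genotypes, and none passed the test in any comparison. The test was limma's moderated test on log2(TPM + 1), two-sided, with Benjamini-Hochberg adjustment over all 11792 genes kept and a threshold of 0.05 on the adjusted p. Between homozygotes and wild types 0 of 9 genes were called, against 0.712% of all genes tested (84 genes). Between heterozygotes and wild types 0 of 9 were called, against 0.237% of all genes (28), and between homozygotes and heterozygotes 0 of 9, against 1.86% (219). At an unadjusted p under 0.05 stood 1 of the 9 genes in the first comparison, Tyrobp, beside 18.6% of all genes, and 0 in the others, beside 9.24% and 13% of all genes. The medians of the 9 log2 changes were -0.06, -0.01 and -0.00 in these 3 comparisons, beside 0.05, -0.01 and 0.07 over all genes. In TPM 0 of 9 genes had homozygotes wholly above wild types, beside 9.50% of all genes, and 0 of 9 wholly below, beside 4.05%. In bulk RNA, fewer cells of a type and less RNA per cell cannot be told apart.

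Trem2, the receptor, stood at 3218, 2672, 2838 and 2885 TPM in 17-month homozygotes, at 3236, 3028, 2902 and 2904 TPM in heterozygotes, and at 2999, 3142, 3241 and 2757 TPM in wild types. The 3 groups overlapped almost completely. The log2 change was -0.06 in homozygotes against wild types (SE 0.08, adjusted p = 0.75 by limma), with a 95% interval from a fold of 0.842 to 1.09, and -0.01 in heterozygotes against wild types (adjusted p = 0.999).

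Tyrobp, the adaptor that carries the ITAM, stood at 6307, 5265, 5927 and 5663 TPM in 17-month homozygotes, at 6835, 6343, 6791 and 6286 TPM in heterozygotes, and at 7082, 6883, 6341 and 6056 TPM in wild types. The homozygotes were the lower group, and their highest animal lay above the lowest animal of each other group. The log2 change was -0.19 in homozygotes against wild types (SE 0.09, unadjusted p = 0.0494, adjusted p = 0.267 by limma) and -0.18 in homozygotes against heterozygotes (adjusted p = 0.396). Of all genes tested, 18.5% had a smaller p than Tyrobp in the first of these comparisons. In RPKM the homozygotes stood at 2154, 1865, 2070 and 2114, and the wild types at 2333, 2454, 2207 and 2242. Those ranges did not overlap, as was the case for 4.14% of all genes lower in homozygotes, and the adjusted p of the RPKM fit was 0.27.

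Syk, the tyrosine kinase that docks on the phosphorylated ITAM, stood at 73.3, 71.2, 84.8 and 71.7 TPM in 17-month homozygotes, at 66.2, 90.1, 70.9 and 53.6 TPM in heterozygotes, and at 85.6, 64.7, 67.4 and 53.6 TPM in wild types. The homozygotes spanned the narrowest range and lay within that of the other groups. In homozygotes against wild types Syk had a log2 change of 0.16 (SE 0.16, adjusted p = 0.638 by limma), with an interval from a fold of 0.885 to 1.42. Plcg2, the phospholipase C that SYK activates, averaged 91.5 ± 12.5 TPM in homozygotes, 93.0 ± 23.8 TPM in heterozygotes and 98.5 ± 14.2 TPM in wild types (SD, n = 4 each). Its log2 change was -0.10 in homozygotes against wild types (adjusted p = 0.811 by limma).

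Inpp5d and Cd33 gave the same picture of overlapping groups. Inpp5d, whose lipid phosphatase removes a product of PI3 kinase, averaged 304 ± 27.7 TPM in homozygotes, 296 ± 67.3 TPM in heterozygotes and 301 ± 41.9 TPM in wild types at 17 months. Cd33, a receptor of the Siglec family, averaged 204 ± 43.4 TPM in homozygotes, 204 ± 44.6 TPM in heterozygotes and 189 ± 37.8 TPM in wild types. Over the 3 comparisons at this age the adjusted p of limma was 0.913 or above for Inpp5d and 0.842 or above for Cd33.

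Bin1, a membrane-bending adaptor of endocytosis, stood at 562, 503, 521 and 512 TPM in 17-month homozygotes, at 564, 685, 519 and 444 TPM in heterozygotes, and at 639, 597, 622 and 506 TPM in wild types. Homozygotes leaned low but overlapped with both other groups (log2 change against wild types -0.17, SE 0.12, adjusted p = 0.509 by limma). Abi3, a partner of the WAVE complex that drives actin branching, averaged 199 ± 18.3 TPM in homozygotes, 182 ± 25.4 TPM in heterozygotes and 190 ± 20.2 TPM in wild types. Ms4a6d, a membrane protein of the MS4A cluster, stood at 105, 91.2, 93.3 and 98.8 TPM in homozygotes, at 107, 120, 148 and 95.3 TPM in heterozygotes, and at 114, 103, 112 and 99.1 TPM in wild types. Its heterozygotes ranged widest, and the homozygotes overlapped with both groups. The log2 change of Ms4a6d was -0.26 in homozygotes against heterozygotes (SE 0.12, adjusted p = 0.387 by limma). In RPKM these 2 groups did not overlap for Ms4a6d, which held for 1.86% of all genes lower in homozygotes, and the adjusted p was 0.16.

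At 3 months the 9 genes were again not called in any comparison, and most leaned low in both mutant groups, as did genes at large. The test called 0 of 9 between homozygotes and wild types, against 0.0604% of 11587 genes (7), and 0 of 9 between heterozygotes and wild types, against 0.0432% (5). Between homozygotes and heterozygotes it called 0 of 9, against 0.0259% (3). Of the 9 log2 changes, 6 lay below 0 in homozygotes against wild types with a median of -0.12, beside -0.10 over all genes. In heterozygotes against wild types 8 lay below 0 with a median of -0.14, beside -0.09 over all genes. An unadjusted p under 0.05 was reached by 3 genes in homozygotes against wild types (Syk, Bin1 and Abi3), by 3 in heterozygotes against wild types (Cd33, Bin1 and Abi3) and by 0 in homozygotes against heterozygotes. Over all genes the shares were 19.7%, 21.6% and 8.55% in the same comparisons, so 3 of 9 is near the background.

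Trem2 stood at 2810, 2495, 2626 and 2572 TPM in 3-month homozygotes, at 2106, 2148, 2610 and 2660 TPM in heterozygotes, and at 2608, 2528, 2728 and 2444 TPM in wild types. The heterozygotes split into a low and a high pair, and the high pair lay among the animals of the other groups. Its log2 change in homozygotes against wild types was 0.03 (SE 0.08, adjusted p = 0.879 by limma, fold interval from 0.901 to 1.15). In heterozygotes against wild types it was -0.12 (adjusted p = 0.412). Tyrobp averaged 4799 ± 332 TPM in homozygotes, 4714 ± 285 TPM in heterozygotes and 4752 ± 282 TPM in wild types. For Tyrobp the interval in homozygotes against wild types ran from a fold of 0.91 to 1.12 (adjusted p = 0.929).

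Syk stood at 103, 97.3, 107 and 116 TPM in 3-month homozygotes, at 122, 131, 103 and 104 TPM in heterozygotes, and at 118, 135, 125 and 127 TPM in wild types. All 4 homozygotes lay below all 4 wild types, and the heterozygotes reached into both groups. In homozygotes against wild types Syk had a log2 change of -0.26 (SE 0.08, adjusted p = 0.157 by limma), with 6.07% of all genes at a smaller p. Of the 9 genes, 2 (Syk and Bin1) had homozygotes wholly below wild types in TPM, beside 15.1% of all genes. In RPKM the Syk homozygotes (51.1, 45.4, 52.2 and 54.3) stayed below the wild types (55.4, 62.3, 59.6 and 54.6), which held for 7.11% of all genes. Centred on each library's median gene, the Syk change was -0.14 (adjusted p = 0.516).

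Bin1 stood at 666, 618, 732 and 729 TPM in 3-month homozygotes, at 703, 700, 682 and 705 TPM in heterozygotes, and at 738, 815, 780 and 751 TPM in wild types. Both mutant groups lay wholly below the wild types by a narrow gap. The log2 change was -0.17 in homozygotes against wild types (SE 0.06, adjusted p = 0.169 by limma) and -0.14 in heterozygotes against wild types (adjusted p = 0.189). In RPKM the Bin1 ranges overlapped, and the changes were -0.10 and -0.06. Abi3 stood at 243, 204, 251 and 241 TPM in homozygotes, at 229, 232, 228 and 233 TPM in heterozygotes, and at 245, 276, 278 and 267 TPM in wild types. The heterozygotes lay within a very narrow band below every wild type, and the homozygotes overlapped with the wild types. The log2 change of Abi3 was -0.21 in heterozygotes against wild types (SE 0.07, adjusted p = 0.113 by limma) and -0.18 in homozygotes against wild types (adjusted p = 0.173). Bin1 and Abi3 were thus 2 of the 9 genes with heterozygotes wholly below wild types, beside 9.99% of all genes. Both overlapped in RPKM.

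Cd33 stood at 296, 336, 317 and 323 TPM in 3-month homozygotes, at 291, 337, 217 and 290 TPM in heterozygotes, and at 334, 345, 315 and 395 TPM in wild types. The lowest value belonged to HET-8304, the library rich in markers of other brain cells. The log2 change in heterozygotes against wild types was -0.30 (SE 0.11, adjusted p = 0.161 by limma), and -0.18 without HET-8304 (adjusted p = 0.273). The part of those markers in the Cd33 level was not tested. Inpp5d, Plcg2 and Ms4a6d overlapped between all genotypes at this age, with log2 changes against wild types from -0.16 to 0.10 and adjusted p of limma from 0.241 to 0.686.

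**Figure D2:**
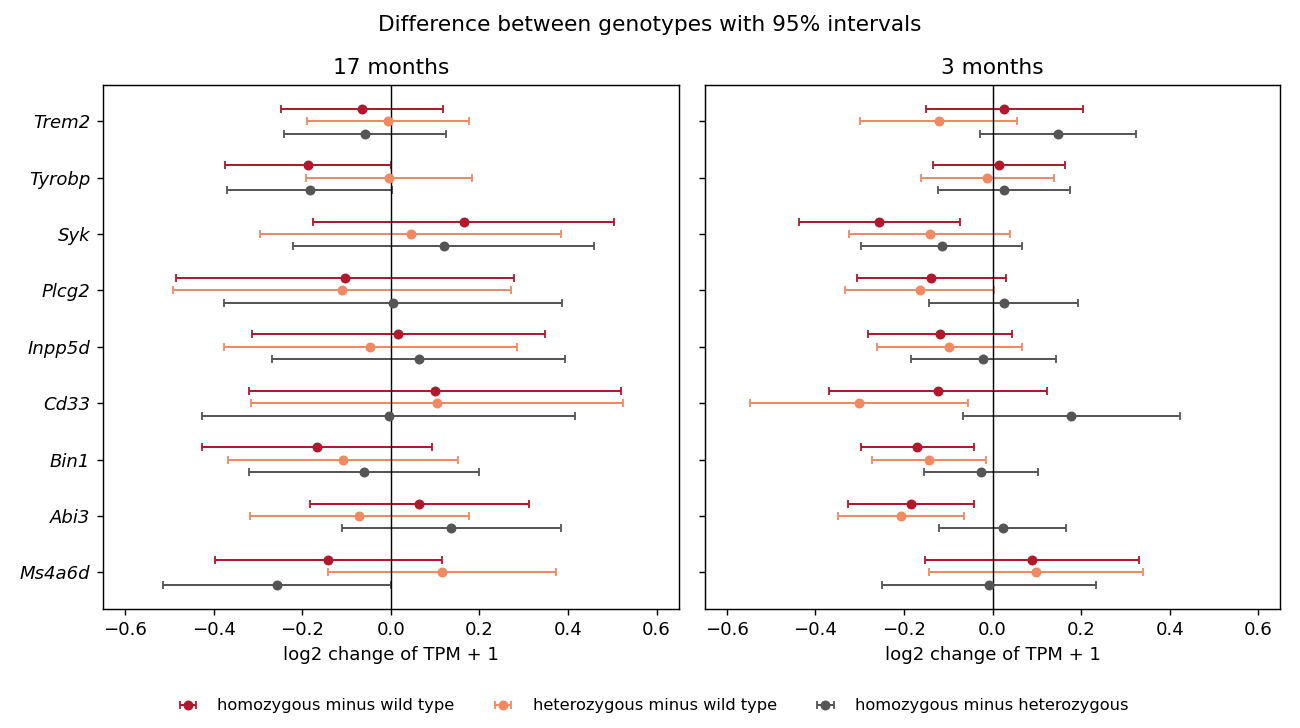
Log2 change of TPM + 1 for each gene at 17 months (left) and 3 months (right), as points with 95% intervals from limma, for homozygous minus wild type, heterozygous minus wild type and homozygous minus heterozygous. No gene passes an adjusted p of 0.05, and the change nearest to it at 3 months is that of Abi3 in heterozygotes (-0.21, adjusted p = 0.113).

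The genotype effects of the 2 ages were also set against each other over all 24 libraries. The difference between the homozygous effects was called for 0 of 9 genes, against 0.247% of 11745 genes (29), with 1 at an unadjusted p under 0.05, beside 21.8% of all genes. For the heterozygous effects it was called for 0 of 9, against 0.749% (88), with 0 at an unadjusted p under 0.05, beside 14.5%. Syk had the smallest p of the 9, with a homozygous effect of 0.16 at 17 months and -0.26 at 3 months (difference 0.42, SE 0.19, unadjusted p = 0.0335, adjusted p = 0.191 by limma). Tyrobp had the opposite sign, with effects of -0.19 at 17 months and 0.01 at 3 months (difference -0.20, adjusted p = 0.269).

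The scale on which microglial genes were read mattered at 17 months. The mean log2 TPM of 14 microglial core genes, among them Cx3cr1, P2ry12, Tmem119 and Csf1r, lay between 9.89 and 10.37 in homozygotes and between 10.22 and 10.48 in wild types, a difference of -0.26 between the means, and the groups overlapped. Of these 14 genes, 13 themselves lay below 0 in homozygotes against wild types. By limma 5 had an unadjusted p under 0.05, beside 18.6% of all genes, and 1 was called lower, beside 0.712% of all genes called. With each library centred on the mean of the 14 genes, the median log2 change of all genes in homozygotes against wild types became 0.32. On this scale 4870 genes were called (41.3% of those tested). Of the 9 genes, 4 were then called higher, a share near that background, namely Syk (0.43, adjusted p = 0.0224 by limma), Inpp5d (0.28, adjusted p = 0.0259), Cd33 (0.36, adjusted p = 0.0251) and Abi3 (0.33, adjusted p = 0.0171). Relative to that median, Syk, Cd33 and Abi3 stood above it and Inpp5d below it. Trem2 (0.20) and Tyrobp (0.08) took a positive sign and were not called. The same 4 genes were called for the difference between the homozygous effects of the 2 ages on this scale, with 0.65 for Syk and adjusted p from 0.00381 to 0.0233, beside 37.5% of all genes. No other alternative called any of the 9.

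**Figure D3:**
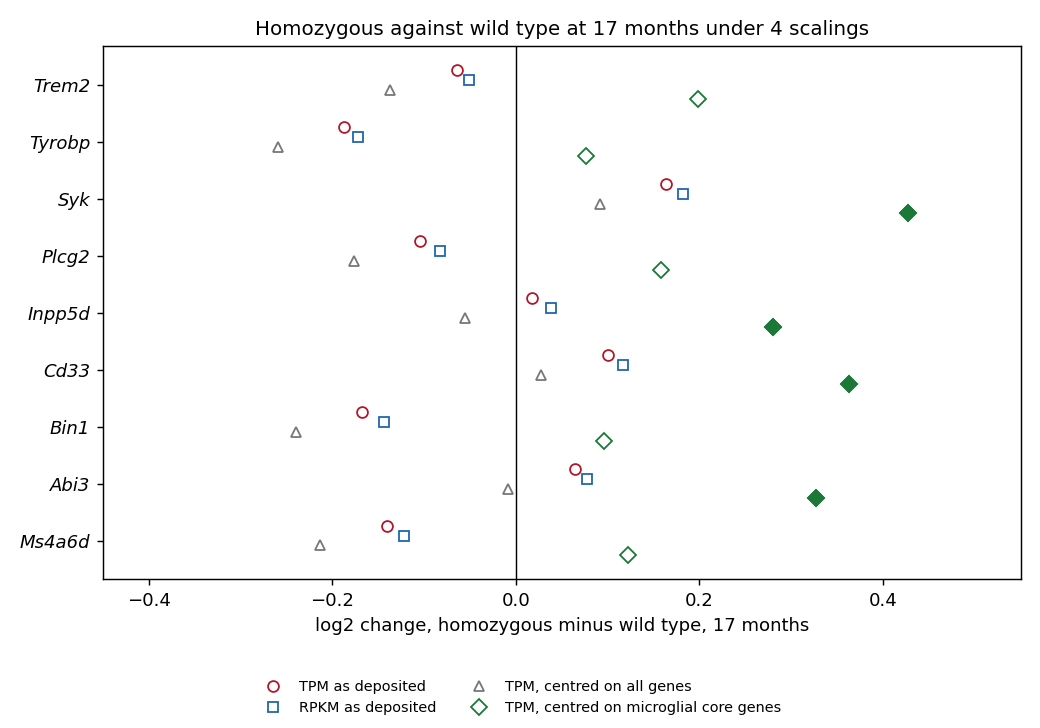
Log2 change of the 9 genes in homozygotes against wild types at 17 months under 4 scalings of the same animals (TPM as deposited, RPKM as deposited, TPM centred on all genes, TPM centred on 14 microglial core genes), with filled symbols for an adjusted p under 0.05. The core-centred values all lie above 0, and 4 of them are filled.

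Trem2 and Tyrobp stood higher at 17 than at 3 months while most of the other genes stood lower. The ages were deposited in separate tables, so these values are set side by side without a test. In wild types Trem2 averaged 3035 ± 210 TPM at 17 months and 2577 ± 121 TPM at 3 months (SD, n = 4 each), a ratio of 1.18, and Tyrobp 6591 ± 475 and 4752 ± 282 TPM, a ratio of 1.39. The 4 animals of 17 months lay above the 4 of 3 months for both genes in wild types and in heterozygotes. Among homozygotes that held for Tyrobp (5791 ± 439 against 4799 ± 332 TPM), and Trem2 overlapped (2903 ± 229 against 2626 ± 134 TPM). A level wholly above that of 3 months was found for 13.3% of all genes in homozygotes, 4.41% in heterozygotes and 7.19% in wild types.

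Syk averaged 67.8 ± 13.3 TPM at 17 months and 126 ± 6.97 TPM at 3 months in wild types, a ratio of 0.536. Inpp5d had a ratio of 0.578 (301 ± 41.9 against 521 ± 29.8 TPM) and Cd33 of 0.545 (189 ± 37.8 against 347 ± 34.2 TPM). Bin1 and Abi3 had ratios of 0.766 and 0.714 in wild types. These 5 genes lay wholly lower at 17 months in wild types, beside 51.1% of all genes. In heterozygotes this held for Syk, Inpp5d and Abi3, beside 26.8% of all genes. In homozygotes it held for Syk, Plcg2, Inpp5d, Cd33, Bin1 and Ms4a6d, beside 43.1%. The median ratio of all genes was 0.86 in homozygotes, 0.813 in heterozygotes and 0.787 in wild types, so most TPM levels were lower at 17 months. The summed TPM of the 14 microglial core genes was lower too. Its means at 17 months were 23457 in homozygotes, 25933 in heterozygotes and 27496 in wild types. At 3 months they were 37779, 37268 and 38881 in the same order. A fall with age was thus not particular to the listed genes.

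In RPKM the median ratio of all genes lay nearer 1, at 1.02 in homozygotes, 0.955 in heterozygotes and 0.96 in wild types. There Trem2 had ratios of 1.35, 1.54 and 1.49 and Tyrobp of 1.48, 1.71 and 1.76 in the same order of genotypes. Both were wholly higher at 17 months in every genotype, beside 26.8%, 8.63% and 18.3% of all genes. Inpp5d was wholly lower at 17 months in every genotype (ratios 0.776, 0.732 and 0.728), beside 16.0%, 12.9% and 28.0% of all genes. Syk was wholly lower in heterozygotes and wild types, and Cd33 in homozygotes and wild types. Bin1 and Abi3 overlapped between the ages in RPKM, and Ms4a6d was wholly higher at 17 months in wild types. The ages also differed in marker sums, with oligodendrocyte markers between 2371 and 6619 TPM in 17-month wild types and between 381 and 915 TPM in 3-month wild types, and the part of this in the ratios was not tested.

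Within a genotype many of the genes covaried from animal to animal, and the order of the ages in this depended on the unit. Each gene's log2(TPM + 1) was taken as a deviation from its genotype mean, and the 9 genes give 36 pairs over 12 animals per age. At 17 months all 36 pairs correlated positively, with a median Pearson r of 0.60. At 3 months 24 of 36 did, with a median of 0.31. In RPKM 23 of 36 pairs were positive at 17 months (median 0.22) and 25 of 36 at 3 months (median 0.35), so the median was higher at 17 months in TPM and at 3 months in RPKM. Animals share their library's depth and composition in every pair. At 17 months HET-7796 was the lowest heterozygote for every listed gene but Trem2, and WT-7943 the lowest wild type for all 9. HET-7796 also had the lowest TPM total (78.9% of the nominal) and the highest neutrophil marker sum at that age (11494 TPM). Its part in the 36 correlations was not tested, and no median r over pairs of all genes is given. In TPM the highest r was that of Plcg2 and Inpp5d at 17 months and that of Syk and Inpp5d at 3 months. Plcg2 and Inpp5d had r = 0.97 at 17 months (0.92 in RPKM) and 0.83 at 3 months (0.84 in RPKM). Syk and Inpp5d had r = 0.86 at 17 months (0.65 in RPKM) and 0.96 at 3 months (0.94 in RPKM). Bin1 and Abi3, which lie outside the ITAM cascade, had r = 0.89 at 17 months (0.72 in RPKM) and 0.84 at 3 months (0.91 in RPKM).

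**Figure D4:**
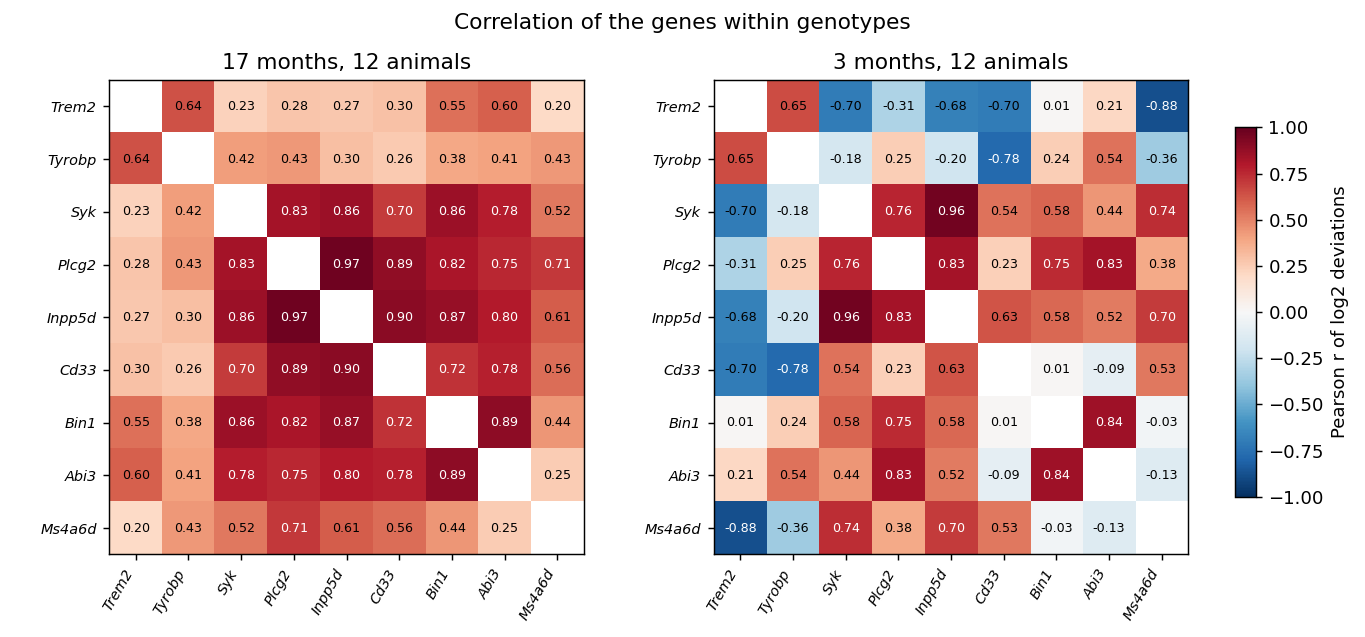
Pearson r between the 9 genes over 12 animals at 17 months (left) and 12 at 3 months (right), from log2(TPM + 1) deviations from genotype means, with red for positive and blue for negative values. At 17 months every pair is positive, and at 3 months the row of Trem2 is negative against Ms4a6d (-0.88), Syk (-0.70), Cd33 (-0.70) and Inpp5d (-0.68).

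Trem2 correlated positively with Tyrobp at both ages and on both scales, though no relation of Trem2 passed the adjusted test. Its correlation with Tyrobp was r = 0.64 at 17 months (Spearman's rho 0.62, 0.78 in RPKM) and 0.65 at 3 months (rho 0.66, 0.86 in RPKM). In 16 relations of Trem2, 8 at each age, tested by permuting animals within genotypes in all 13824 ways, none had an adjusted p under 0.05, and the smallest was 0.145 for Pearson's r and 0.059 for Spearman's rho. The exact two-sided p of Trem2 with Tyrobp was 0.0643 at 17 months (0.171 adjusted) and 0.00955 at 3 months (0.145 adjusted). Without the 2 animals farthest from the median of Trem2, r was 0.38 at 17 months and 0.85 at 3 months.

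With Ms4a6d, Trem2 had r = -0.88 and rho -0.92 at 3 months (exact permutation p = 0.0271, adjusted 0.145), r = -0.81 without the 2 farthest animals, and r = -0.63 in RPKM. With Cd33 it had r = -0.70 and rho -0.75 (exact permutation p = 0.0253, adjusted 0.145), r = -0.95 without the 2 farthest animals, and r = -0.77 in RPKM. The relations of Trem2 with Syk and Inpp5d at 3 months shrank to r = -0.24 and -0.21 in RPKM. At 17 months Trem2 had r = 0.20 with Ms4a6d and 0.30 with Cd33 in TPM, and -0.04 and -0.38 in RPKM. With Syk, Plcg2 and Inpp5d it had r = 0.23, 0.28 and 0.27 in TPM and -0.48, -0.56 and -0.56 in RPKM at that age, so the sign of these relations at 17 months depended on the unit. Among 11436 genes kept at both ages, those most like Trem2 by the smaller of its 2 within-age correlations were Vps25 (0.86 and 0.91 at 17 and 3 months), Mrpl20 (0.83 and 0.82), Cd9 (0.79 and 0.87), Tmem8c (0.76 and 0.77) and Agpat1 (0.75 and 0.77). Tyrobp ranked 66th on this measure.

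The start regions of Trem2, Inpp5d and Syk are shown because Syk and Inpp5d had the highest r of the 36 pairs at 3 months in TPM and Trem2 is the receptor above them. The relations of Trem2 with both at that age did not pass the test (exact permutation p = 0.141 each, adjusted 0.283). RefSeq windows of build GRCm38.p6, from 250 bases before to 50 after a start, were matched for 5 of the 9 genes (Trem2, Syk, Plcg2, Inpp5d and Cd33), with 2 starts for Syk. Capitals mark GAGGAA, the core bound by PU.1, the main myeloid ETS factor, on either strand (TTCCTC on the other). Sequences run 5′ to 3′ on the strand of the gene, which is the plus strand for all 4 windows.
Trem2, chr17:48346151-48346450: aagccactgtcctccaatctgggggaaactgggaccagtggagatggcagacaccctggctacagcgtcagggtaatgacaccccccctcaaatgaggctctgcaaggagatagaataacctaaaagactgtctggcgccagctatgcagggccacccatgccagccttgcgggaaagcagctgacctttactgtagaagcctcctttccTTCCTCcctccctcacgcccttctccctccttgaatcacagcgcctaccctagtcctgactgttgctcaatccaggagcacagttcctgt
Inpp5d, chr1:87620062-87620361: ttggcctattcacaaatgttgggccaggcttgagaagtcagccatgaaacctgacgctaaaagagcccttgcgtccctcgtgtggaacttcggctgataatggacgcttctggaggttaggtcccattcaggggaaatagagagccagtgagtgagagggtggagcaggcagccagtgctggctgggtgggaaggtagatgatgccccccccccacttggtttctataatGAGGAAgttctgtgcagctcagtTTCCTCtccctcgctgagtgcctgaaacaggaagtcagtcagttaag
Syk, first start, chr13:52583187-52583486: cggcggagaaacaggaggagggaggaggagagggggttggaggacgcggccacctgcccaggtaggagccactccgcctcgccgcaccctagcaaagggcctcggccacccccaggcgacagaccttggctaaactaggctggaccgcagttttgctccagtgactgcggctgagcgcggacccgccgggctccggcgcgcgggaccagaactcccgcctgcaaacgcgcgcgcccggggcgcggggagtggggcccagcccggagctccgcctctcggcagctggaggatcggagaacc
Syk, second start, chr13:52596632-52596931: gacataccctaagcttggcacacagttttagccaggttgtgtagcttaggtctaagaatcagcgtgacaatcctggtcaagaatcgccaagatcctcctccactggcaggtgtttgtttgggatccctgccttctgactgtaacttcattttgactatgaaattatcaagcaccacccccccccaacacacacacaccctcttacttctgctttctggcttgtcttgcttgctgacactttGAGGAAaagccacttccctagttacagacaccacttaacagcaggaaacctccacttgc
The Trem2 window holds the core at -40 from the start and the Inpp5d window at -20 and 4. The first Syk window holds none and the second holds it at -9. Cd33 has 1 match and Plcg2 none. A match is a description, and 28.3% of all 32851 windows hold this core. TGANTCA, the AP-1 motif, was found in the Trem2 window (7.81% of all windows), and CACGTG, the core of the lysosomal CLEAR element, in the Plcg2 window (7.15%). No other of the 6 windows held either motif, and these 3 motifs do not overlap in the printed windows.

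Other genes of the same pathways were described from lists chosen with earlier results of these data known. Of 33 further ITAM pathway genes (kinases, adaptors, phosphatases and the TREM2 sheddases Adam10 and Adam17), 32 were tested and none was called in any of the 6 comparisons or for either difference between ages. In homozygotes against wild types at 3 months 27 of the 32 lay below 0, with a median of -0.09 beside -0.10 over all genes, and 11 had an unadjusted p under 0.05, beside 19.7% of all genes. At 17 months 18 of 32 lay above 0 in the same comparison, and 7 had an unadjusted p under 0.05, beside 18.6%. The median at 17 months was 0.05, the same as over all genes.

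The 5 other genes of the Trem family were not called either. In homozygotes against wild types at 17 months all 5 lay above 0, and the 3 largest changes were those of Treml4 (1.99, SE 0.66, adjusted p = 0.133 by limma), Trem3 (1.63, adjusted p = 0.173) and Trem1 (1.36, adjusted p = 0.175), with 3 of 5 at an unadjusted p under 0.05, beside 18.6% of all genes. Treml4 ranged from 6.19 to 92.1 TPM in these homozygotes and reached 7.68 TPM in wild types, and without HOM-7899 its change was 1.17. Under core centring, which called 41.3% of all genes, these 3 were called (adjusted p from 0.0241 to 0.042 by limma). TREM1 is a receptor of neutrophils and monocytes that also signals through TYROBP. Neutrophil markers summed to between 2311 and 6193 TPM in these homozygotes and between 422 and 2588 TPM in wild types. Monocyte markers summed to between 368 and 1304 TPM and between 139 and 235 TPM. In 17-month heterozygotes the sums were 568 to 11494 TPM for neutrophil and 174 to 441 TPM for monocyte markers. There the 5 Trem genes had a median change of 0.03 against wild types, with 0 at an unadjusted p under 0.05 by limma. The part of these markers in the Trem family values was not tested. The other Ms4a genes, 7 tested at 17 months and 5 at 3 months, were not called, and 2 of them had an unadjusted p under 0.05 in homozygotes against wild types at each age, beside 18.6% and 19.7% of all genes at 17 and 3 months. The nearest to the threshold was Ms4a4c, also a monocyte marker, in homozygotes against wild types at 3 months (0.73, adjusted p = 0.0838 by limma).

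Of 13 inhibitory and Siglec-type receptors tested, 1 was called, lower in homozygotes against wild types at 17 months. Over all genes 0.712% were called in that comparison (84 genes, 29 of them lower). Siglecf, a sialic acid receptor related to Cd33, averaged 16.2 ± 2.18 TPM in homozygotes and 26.8 ± 3.12 TPM in wild types (SD, n = 4 each). Its ranges of 14.2 to 18.8 and 23.1 to 30.6 TPM did not overlap. The log2 change was -0.70 (SE 0.13, adjusted p = 0.044 by limma), and at 3 months it was -0.35 (adjusted p = 0.0838). The call at 17 months was lost in 3 of 6 other settings (log2 change -0.75 and adjusted p = 0.0799 with a sex term) and with any of 8 of the 12 animals left out, and kept without HOM-7835, HET-7794, HET-7795 or HET-7796 (adjusted p up to 0.15 over these alternatives). The list of other Alzheimer risk genes had 35 members tested at 17 months and 33 at 3 months. None was called between genotypes by limma in the main fits. Between 3 and 6 had an unadjusted p under 0.05 in each comparison, beside 8.55% to 21.6% of all genes. Ank3, an ankyrin of neurons and oligodendrocytes, was called for the difference between the heterozygous effects of the 2 ages (-1.69, adjusted p = 0.0314 by limma). It was 1 of 34 genes of the list tested there, with 0.749% of all genes called. That call was lost without HET-7791, HET-7794, HET-7795, WT-8323, WT-8325 or WT-8326 and under core centring (adjusted p up to 0.0842). It was kept in 4 of the 5 other settings and 16 of the 22 left-out fits in which Ank3 was tested. Ank3 was not tested in the remaining alternatives. Ank3 averaged 0.837 TPM in heterozygotes and 3.31 TPM in wild types at 17 months, and 0.981 and 0.289 TPM at 3 months. The 3-month levels lay below the 1 TPM at which a gene was kept at that age. Oligodendrocyte markers summed to between 424 and 1254 TPM in 17-month heterozygotes and between 2371 and 6619 TPM in 17-month wild types. At 3 months they summed to between 680 and 2549 TPM in heterozygotes and between 381 and 915 TPM in wild types. The part of these markers in the Ank3 value was not tested. With a sex term Ank3 was also called lower in heterozygotes against wild types at 17 months (-1.25, adjusted p = 0.0333 by limma). That fit called 220 of all genes. With the same term Clu was called higher in homozygotes against heterozygotes at 17 months (1.37, adjusted p = 0.0379 by limma), where 45 of all genes were called.

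The genes that microglia raise in a Trem2-dependent way in mouse models of amyloid disease were tested as a further list, in which Trem2 and Cd9 also stand. Between homozygotes and heterozygotes at 17 months all 23 genes tested lay below 0, with a median of -0.28 beside 0.07 over all genes. Over all genes 65.3% lay above 0. Of the 23, 4 were called lower by limma, beside 1.86% of all genes called, and 12 had an unadjusted p under 0.05, beside 13%. At 3 months 20 of the 23 lay above 0 in this comparison, with a median of 0.14 beside 0.00 over all genes, 0 called by limma and 7 at an unadjusted p under 0.05 (8.55% of all genes). Lpl, a lipase of lipoproteins, averaged 39.9 ± 9.52 TPM in homozygotes and 103 ± 12.2 TPM in heterozygotes (log2 change -1.37, SE 0.23, adjusted p = 0.00751 by limma). Spp1, which encodes osteopontin, averaged 227 ± 78.0 and 580 ± 60.7 TPM (-1.42, adjusted p = 0.0244).

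Clec7a, a receptor for fungal glucans, averaged 62.7 ± 8.30 TPM in homozygotes and 121 ± 27.2 TPM in heterozygotes (-0.92, SE 0.18, adjusted p = 0.0174 by limma), and Cd9, a tetraspanin, 1363 ± 105 and 1779 ± 77.9 TPM (-0.39, adjusted p = 0.0413). All 4 calls were lost with a sex term, where limma gave Lpl a change of -1.07 (adjusted p = 0.113), Spp1 -1.02 (0.222), Clec7a -0.81 (0.148) and Cd9 -0.48 (0.0796). Of these heterozygotes 0 were male, and of the homozygotes 3. With 1 animal left out, Lpl stayed called in 12 of 12 fits, Spp1 was lost without HOM-7835, HOM-7893, HET-7794 or HET-7795, Clec7a was lost without HOM-7893 or HET-7795, and Cd9 was kept without HOM-7835, WT-7785 or WT-7943 only. Trem2 itself was at -0.06 in this comparison (adjusted p = 0.839). No gene of the list was called in homozygotes or heterozygotes against wild types in the main fits. Lpl was called in homozygotes at 17 months in RPKM and under median centring (adjusted p = 0.03 and 0.0333 by limma). Gpnmb, a glycoprotein of phagocytes, was called in homozygotes at 3 months on the same 2 scales (0.0228 and 0.0357 by limma). It was also called at 17 months under core centring (0.0344 by limma). For homozygotes against wild types at 17 months, 932 of all genes were called in RPKM, 609 under median centring and 4870 under core centring. At 3 months 6 were called in RPKM and 26 under median centring. Of the list, 20 of 23 lay below 0 in homozygotes and 19 of 23 above 0 in heterozygotes at 17 months. At 17 months 7 and 4 of them had an unadjusted p under 0.05, beside 18.6% and 9.24% of all genes. At 3 months 12 of 23 lay above 0 in homozygotes and 20 of 23 below 0 in heterozygotes against wild types, with 7 and 9 at an unadjusted p under 0.05, beside 19.7% and 21.6%. These comparisons share their animals. Of the 9 genes that rise without Trem2 in the same models, Tyrobp among them, all lay below 0 in homozygotes against heterozygotes at 17 months, with 0 called by limma and 0 at an unadjusted p under 0.05, and at 3 months 7 of the 9 lay above 0, likewise with 0 called and 0 at an unadjusted p under 0.05. Of 9 endothelial and mural markers tested, 8 were called higher in homozygotes than in heterozygotes at 17 months, beside 1.86% of all genes called. Their sums were 395 to 513 TPM in homozygotes and 168 to 250 TPM in heterozygotes, and their part was not tested.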

How the data were processed

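The 24 libraries were poly(A)-selected and strand-specific and were read from a single end over 75 bases, per the labels' protocols. The submitters' processing notes list Salmon 0.8.2, TopHat2 2.1.1, Partek 7.17.0918, DESeq2 and build mm10 without giving each a role. The authors deposited gene-level TPM values in a table for each age (20636 genes), whose columns sum to between 78.9% and 90.7% of the nominal total. The authors also deposited RPKM values with the number of alignments per library (18721 genes at 3 months and 19210 at 17 months), used here as a check. Neither unit is a count, so no count model was used and no intervals for counting error are given. Columns carry an animal number, and the RPKM headers pair it with a genotype. The 4 animals headed hemi were taken as heterozygotes.

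A gene was kept at an age when it averaged 1 TPM or more across the 12 libraries, as 11792 did at 17 months, 11587 at 3 months and all 9 members at both. Tests used limma 3.58.1 in R 4.3.3 on log2(TPM + 1) with a trend, a mean per genotype and a shared spread, two-sided, with Benjamini-Hochberg adjustment over all genes kept and calls at 0.05. A log2 change on this scale understates the change of low genes. The difference between ages was fitted over 24 animals. The other settings tried were RPKM, a pseudocount of 0.1, no filter, median centring, centring on 14 microglial core genes, a sex term (male where 4 Y-linked genes sum to over 5 TPM) and leaving out each animal. The fits were tested on simulated data. Tables and correlations used Python 3.11.15, numpy 2.4.6 and pandas 2.3.3, and figures matplotlib 3.10.9.

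The members and lists were chosen with earlier results of these data known. All 9 members are named. Of each further list, called genes are named, or the largest changes up to 3 in a comparison. Of genes like Trem2, the 5 nearest are named. Sequence windows of 75 bases of the longest transcripts were unique for 7 of the 9 genes, with 0.0707% of Cd33 and 0.521% of Ms4a6d windows shared with other genes. Abi3, Plcg2 and Bin1 overlap genes on the opposite strand, and the sources used here do not say whether counting used strand. In GRCm38 (mm10) the genes lie as follows: Trem2 at chr17:48346401-48354147, Tyrobp at chr7:30413760-30417585, Syk at chr13:52583173-52648792, Plcg2 at chr8:117498291-117635142, Inpp5d at chr1:87620312-87720507 and Bin1 at chr18:32377230-32435737 on the plus strand, and Cd33 at chr7:43524216-43544428, Abi3 at chr11:95830074-95842476 and Ms4a6d at chr19:11586604-11604849 on the minus strand.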

Additional observations from a re-analysis of the deposited data

Results flagged for a closer look

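In 54 groups of 4 animals (9 genes, 3 genotypes, 2 ages), 2 held an animal far from the other 3 by Dixon's test at its 95% critical value for 4 samples. Chance flags about 1 in 20 groups. Syk stood at 84.8 TPM in HOM-7899, against 71.2 to 73.3 TPM in the other 17-month homozygotes. Ms4a6d stood at 109.7 TPM in WT-8322, against 121 to 123 TPM in the other 3-month wild types.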

How the results depend on the processing

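With all animals, 0 of the 9 genes were called in each of the 6 genotype comparisons and for both differences between ages. Centring on microglial core genes called 4 for homozygotes against wild types at 17 months and 4 for the difference between homozygous effects, and every other setting and each animal left out called 0. Without being called on either side, the sign differed from the main value in 9 of 72 log2 changes in RPKM, 16 under median centring, 20 under core centring, 11 with a sex term and 82 of 1080 with an animal left out, and in none with a pseudocount of 0.1 or no filter. The smallest adjusted p of any of the 9 outside core centring was 0.0713. The cause of these differences was not tested. Without the filter on low values Siglecf, Spp1 and Cd9 also lost their calls, Siglecf with a pseudocount of 0.1, and Cd9 in RPKM and under core centring. Dok3, Lilr4b, Abca7 and Ace, not called in TPM, were called for homozygotes against wild types at 17 months in RPKM (adjusted p = 0.0352, 0.0465, 0.0356 and 0.0308 by limma). In RPKM 932 of all 11173 genes tested were called in that comparison.

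The number of all genes called varied far more. For homozygotes against wild types at 17 months it was 84, and 932 in RPKM, 19 with a pseudocount of 0.1, 11 with no filter, 609 under median centring, 4870 under core centring, 5 with a sex term, and 1 (without HOM-7893) to 368 (without HET-7796) with an animal left out. For heterozygotes against wild types at 17 months it was 28, and 17 in RPKM, 0 with no filter, 1 under median centring, 0 under core centring, 220 with a sex term, and 0 (without HET-7794) to 239 (without WT-7785). For homozygotes against heterozygotes at 17 months it was 219, and 767 under core centring, 45 with a sex term, and 104 (without HOM-7899) to 246. At 3 months it was 7 for homozygotes against wild types, and 26 under median centring, 1 under core centring, 2 with a sex term, and 2 (without HOM-8282) to 118 (without HET-8304). For heterozygotes against wild types it was 5, and 1 in RPKM, 10 with no filter, 3 with a sex term, and 3 to 467 (without HET-8309). For homozygotes against heterozygotes it was 3, and 1 in RPKM, 5 under median centring, and 3 to 66 (without HET-8309). For the difference between homozygous effects it was 29, and 568 in RPKM, 478 under median centring, 4408 under core centring, 82 with a sex term, and 1 (without HOM-7899) to 658 (without HET-7796). For heterozygous effects it was 88, and 140 under median centring, 26 under core centring, 217 with a sex term, and 19 (without HET-7795) to 334 (without HET-7796).

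No paired analysis was possible because neither the labels nor the table columns name pairs of animals. The animal numbers heading the table columns are also not linked to the labels' replicate numbers. Groups held 4 animals each. At 17 months the 95% interval of Cd33 in heterozygotes against wild types ran from -0.32 to 0.53 on the log2 scale. That of Plcg2 ran from -0.49 to 0.27. Changes anywhere within such intervals are compatible with these values, so the absence of a call does not show equal levels. No table holds counts, so the error from counting is unknown.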
